A study of Mus musculus with 2 samples.

Results

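Heterogeneous nuclear ribonucleoproteins (hnRNPs) are proteins that bind RNA as it leaves RNA polymerase II and steer its splicing, packaging, export and decay. The genes described here are 36 genes that encode hnRNPs and related nuclear RNA-binding proteins, taken by symbol from a list by family and function that was drawn up with earlier results of these data known, out of 55536 annotated genes. All 36 symbols matched 1 gene each, and together these genes have 402 annotated transcripts. The RNA came from chromatin of macrophages, primary cells of the mouse strain C57BL/6J derived from bone marrow, and was sequenced as total RNA after removal of ribosomal RNA. Both cultures had received 100 ng/ml of lipid A for 75 min. Lipid A is the ligand of Toll-like receptor 4 within lipopolysaccharide. The series has 1 group of 2 libraries, labelled biological replicates 2 and 1 and made from 500 and 250 ng of RNA. Both carry the same donor label, sex and age were not collected, and no label says that the cultures had separate animals as their source, so the spread between them may be technical. No unstimulated cells were analysed here, so the data describe levels at 1 time and no response to lipid A.

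Many hnRNP genes are known to regulate their own transcripts. The protein promotes a splice form that carries a premature stop codon, through inclusion of a "poison" exon, skipping of a coding exon or splicing within the 3′ untranslated region, and the form is then degraded in the cytoplasm by nonsense-mediated decay (NMD). Retention of introns on chromatin is another known way to keep such transcripts out of the mRNA pool. RNA on chromatin has not yet met the ribosome, so it can hold forms that are scarce in cytoplasmic RNA.

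The libraries held 29638814 (replicate 2) and 21453617 (replicate 1) estimated counts on annotated genes, and the members' own counts ran from 92.0 to 18206 in replicate 2 and from 64.0 to 10440 in replicate 1. Macrophage identity was checked with 8 markers, which summed to 448 TPM in replicate 2 and 273 TPM in replicate 1 (TPM is a count divided by transcript length and scaled so that each table has the same total). Of these, 7 were at 1 TPM or more in both libraries, led by Adgre1 and Cd14. The 18 markers of other cell types summed to 3.49 TPM in replicate 2 and 2.27 TPM in replicate 1, with 8 at 0 in both libraries and Itga2b alone at 1 TPM or more in both (1.32 and 1.29 TPM in replicates 2 and 1). By the second quantification, made from the reads and a transcript index, they summed to 20.1 TPM in replicate 2 and 9.32 TPM in replicate 1 and 3 reached 1 TPM in both, with Pecam1, an endothelial marker, at 8.67 and 3.36 TPM and Ms4a1 (CD20, of B cells) at 1.87 and 1.03 TPM in replicates 2 and 1. The macrophage markers then summed to 650 TPM in replicate 2 and 371 TPM in replicate 1, and the part of other cells in the members' values was not tested. In RNA of a whole culture, fewer cells with a transcript and less transcript per cell cannot be told apart.

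The sequences that bear on the results come first. They were read from the GENCODE M21 transcripts, whose positions are on mm10, and are written 5′ to 3′ on the strand of the gene. Both of the following are exons that lie inside an intron of the coding transcripts, shown from the first base of the exon to its stop codon, which is in capitals. The Hnrnpl exon is 70 bases long (chr7:28817335-28817404, plus strand), and the Hnrnpll exon is 83 bases long (chr17:80044940-80045022, minus strand).
Hnrnpl-213: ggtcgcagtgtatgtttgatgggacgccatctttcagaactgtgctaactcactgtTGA
Hnrnpll-203: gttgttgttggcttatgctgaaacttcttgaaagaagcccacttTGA

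The last 30 bases of the reading frame are shown next for the leading NMD-annotated transcripts of the 3 genes with the largest shares of them and of Ptbp1, an example of a skipped exon, again with the stop codon in capitals. Hnrnpa1-203 and Hnrnpd-208 stop where coding transcripts of the same gene also stop, and are marked for NMD by splice junctions that follow. Hnrnpu-206 and Ptbp1-201 end at stops that no coding transcript of their genes uses, and the Ptbp1 stretch crosses a splice junction.
Hnrnpa1-203: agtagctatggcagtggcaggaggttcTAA
Hnrnpd-208: ggacatcaaaatagctacaaaccatacTAA
Hnrnpu-206: gtccatgtgaatgtgctgtgtgaagagTAA
Ptbp1-201: gaggcgtctacggtgatgtgcagcgggTGA

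A last set shows where intron sequence enters leading annotated transcripts that keep intron. Each has 30 bases across the 5′ splice site, with its GT in capitals. The first 10 bases are exon and the rest is intron that the annotated transcript keeps. The sequences are those of the annotation, and reads across these sites were not examined.
Hnrnpl-206: agtggacaagGTaatcctgatggctacttt
Hnrnpll-207: ggaagacgagGTaggtattttacgaatttt
Ilf2-202: tggcttacagGTataacacacttctctggg
Hnrnph1-204: ttcttctcagGTatgtagtcctgtttgttg
Ewsr1-209: aagcctggtgGTaagtttttgagtattacc

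Nearly all of the genes were well represented on chromatin. Of the 36, 35 were at 1 TPM or more in both libraries, against 34.7% of the 22028 annotated protein-coding genes. The median member stood at 65.8 TPM in replicate 2 and 34.0 TPM in replicate 1 (mean of each gene's libraries, 50.3 TPM). The other 7598 expressed protein-coding genes had medians of 10.3 TPM in replicate 2 and 5.78 TPM in replicate 1. By mean TPM, 28 of the 36 members lay above the upper quartile of those genes (21.2 TPM) and 18 above their upper decile (52.6 TPM). Subunits of the core spliceosome, the machinery that these proteins regulate, were lower as a list. Their median was 8.24 TPM in replicate 2 and 4.82 TPM in replicate 1 over 32 genes, of which 6 passed the same quartile, with Sf3b1 and Snrnp70 the highest.

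**Figure D1:**
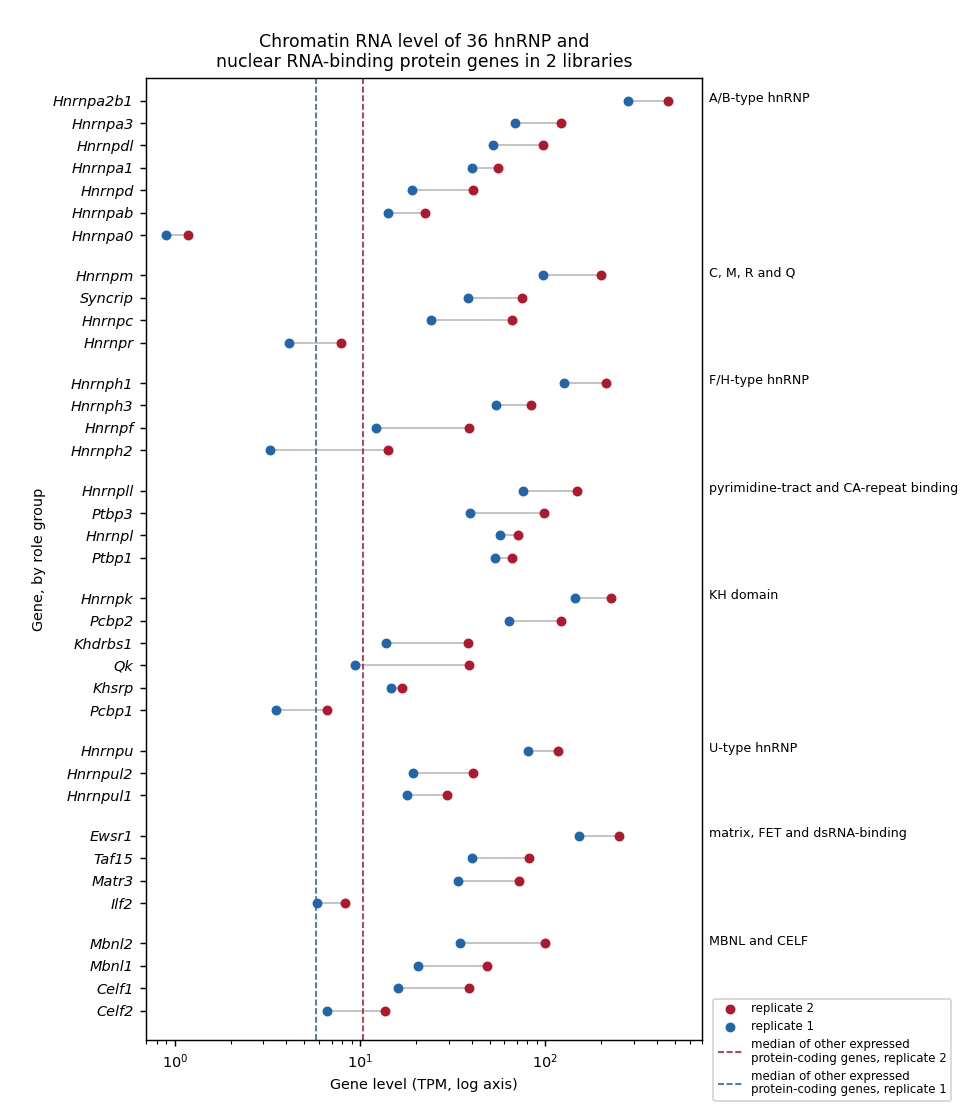
Gene level in TPM (log axis) of the 36 genes, grouped by role and ordered by mean level within a group, in replicate 2 (red) and replicate 1 (blue). Dashed lines mark the medians of the other expressed protein-coding genes, at 10.3 TPM in replicate 2 and 5.78 TPM in replicate 1, and Hnrnpa0 is the gene farthest to the left.

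Every member had a higher TPM in replicate 2 than in replicate 1, as the plot of levels by role shows. This shift was shared with other genes: the median expressed protein-coding gene had a log2 ratio of TPM + 1, replicate 2 over replicate 1, of 0.67. TPM is relative to everything in its own table, so each SD between the libraries contains that shift. Differences between libraries are therefore taken up below on counts scaled by TMM, edgeR's trimmed mean of M-values.

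Hnrnpa2b1, whose proteins act in splicing and in RNA transport, was the highest of all members (chr6, 8963 bases long), at 461 TPM in replicate 2 and 279 TPM in replicate 1. Among the other A/B-type genes, which encode proteins with paired RNA recognition motifs, Hnrnpa3, Hnrnpdl and Hnrnpa1 had means of 95.0, 74.5 and 47.8 TPM. Hnrnpd (AUF1, a protein that directs decay of AU-rich mRNAs) and Hnrnpab were at 29.8 and 18.4 TPM. Hnrnpa0, a protein of the same family that binds AU-rich mRNAs, was the lowest member, with 1.18 TPM in replicate 2 and 0.89 TPM in replicate 1. Counts of Hnrnpa3 and Hnrnpa1 depend on how reads were divided with copies. Pseudogenes at 90% identity or more over at least 300 bases of coding sequence numbered 36 for Hnrnpa3 and 14 for Hnrnpa1. These pseudogenes held 24.2% (replicate 2) and 22.6% (replicate 1) of the combined counts for Hnrnpa3, and 11.2% in each library for Hnrnpa1. By the second quantification they held 45.9% in replicate 2 and 54.7% in replicate 1 for Hnrnpa3, and 17.3% in replicate 2 and 28.2% in replicate 1 for Hnrnpa1.

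In the C, M, R and Q group the order was Hnrnpm at 148 ± 71.9 TPM, Syncrip (hnRNP Q) at 56.4 ± 25.4 TPM, Hnrnpc at 45.0 ± 29.7 TPM and Hnrnpr at 6.02 ± 2.68 TPM (mean ± SD, n = 2). Hnrnpm encodes a protein known in mouse macrophages to slow the splicing of innate immune transcripts, and Hnrnpc a protein that binds uridine tracts. Hnrnpr was among the 3 lowest members, at 7.92 TPM in replicate 2 and 4.13 TPM in replicate 1. Syncrip was above Hnrnpc in both libraries, at 74.4 against 66.0 TPM in replicate 2 and 38.4 against 24.0 TPM in replicate 1. By the second quantification Hnrnpc was the higher in replicate 2 (99.7 against 92.7 TPM) and Syncrip in replicate 1 (43.3 against 41.6 TPM).

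The F/H-type proteins bind runs of guanosine. Hnrnph1 (170 ± 61.2 TPM) and Hnrnph3 (68.9 ± 20.8 TPM) lay well above Hnrnpf (25.4 ± 18.7 TPM) and Hnrnph2 (8.74 ± 7.73 TPM). Hnrnpf and Hnrnph2 have no intron between their coding parts, and the same is true of Hnrnpa0 and of Pcbp1, at 6.58 TPM in replicate 2 and 3.51 TPM in replicate 1. These 4 genes had a median of 6.89 TPM and the 32 members with such introns a median of 58.0 TPM. No limit on level was set for these medians. Gene TPM includes transcripts that hold intron, and their part in this difference was not tested. Among other genes a difference in the same direction was present, with medians taken over expressed genes only. Of 3541 other protein-coding genes without such an intron 7.48% were expressed (median 4.67 TPM), and of 18451 with one or more 39.7% were expressed (median 8.31 TPM).

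Of the genes for proteins that bind pyrimidine tracts and CA repeats, Hnrnpll was the highest in both libraries, at 112 ± 51.1 TPM. Ptbp3 (68.9 ± 41.8 TPM), Hnrnpl (63.7 ± 9.98 TPM) and Ptbp1 (59.6 ± 8.61 TPM) changed order between the libraries. Of these 3, Ptbp3 was the highest in replicate 2 (98.5 TPM) and the lowest in replicate 1 (39.4 TPM). Hnrnpll led by the first quantification only. By the second, Ptbp3 had the highest mean, at 220 TPM in replicate 2 and 89.3 TPM in replicate 1. In replicate 1 Ptbp1 was above it, at 97.5 TPM. Hnrnpll, Ptbp1 and Hnrnpl had means of 115, 102 and 68.7 TPM by the second quantification. Hnrnpll is known for exon skipping in the CD45 transcript of lymphocytes, and Ptbp1 as a general splicing repressor. Ptbp2, their paralog known from neurons, was itself the highest of 19 tissue-restricted paralogs of the members, at 39.2 TPM in replicate 2 and 13.2 TPM in replicate 1. Of these 19 paralogs 3 reached 1 TPM in both libraries, the next being Celf3 at 2.37 and 1.43 TPM in replicates 2 and 1, and 7 were at 0 in both. By the second quantification 7 reached 1 TPM in both and 3 were at 0, and Khdrbs2, listed at 0 by the first, had 11.2 TPM in replicate 2 and 4.37 TPM in replicate 1.

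Among the KH-domain genes, Hnrnpk, a poly(C)-binding protein, had the highest level of all members after Hnrnpa2b1 and Ewsr1, with 226 TPM in replicate 2 and 145 TPM in replicate 1. Pcbp2 (92.4 ± 40.6 TPM) lay far above its intronless relative Pcbp1. Khdrbs1 (Sam68), Qk (quaking) and Khsrp (KSRP, an mRNA decay factor) had means between 15.7 and 26.1 TPM. Of the U-type genes, Hnrnpu, a scaffold protein of nuclear RNA and chromatin, was at 98.9 ± 25.8 TPM, and Hnrnpul2 and Hnrnpul1 were at 30.1 ± 15.1 and 23.6 ± 8.10 TPM.

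Ewsr1 was second among the members, at 248 TPM in replicate 2 and 151 TPM in replicate 1. It and Taf15 (60.8 ± 29.2 TPM) belong to the FET family, proteins that associate with RNA polymerase II. A list of 18 broadly expressed relatives of the members, led by the RNA helicase gene Ddx5, was at 1 TPM or more throughout in both libraries (list median 52.3 TPM in replicate 2 and 24.98 TPM in replicate 1). Matr3, a nuclear matrix protein, was at 52.7 ± 27.1 TPM and Ilf2, a partner of double-stranded RNA-binding proteins, at 7.04 ± 1.68 TPM. Mbnl2, Mbnl1, Celf1 and Celf2, whose proteins are known to oppose each other on many exons, had means of 67.1, 34.5, 27.3 and 10.1 TPM. The second quantification placed 9 members at least 1.5 times higher and none that much lower (rank correlation of levels over the 36 genes, 0.93). The largest gap was for Celf1, at 172 and 75.0 TPM in replicates 2 and 1 by the second quantification, where the 271-base fragment Celf1-211 alone had 90.7 and 42.6 TPM.

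Coding transcripts held less of these genes' TPM than the other types together, and slightly more of their counts. Summed over all transcripts of the 36 genes, protein-coding transcripts held 39.2% of TPM in replicate 2 and 38.6% in replicate 1, against 48.3% and 50.5% over the other expressed protein-coding genes. Retained-intron transcripts held 39.1% in replicate 2 and 36.5% in replicate 1, processed transcripts 15.8% and 15.5%, and NMD-annotated transcripts 5.88% and 9.32% in replicates 2 and 1. Over the other genes the retained-intron part was nearly the same, at 39.5% in replicate 2 and 36.8% in replicate 1, the processed part was 8.53% and 8.59%, and the NMD-annotated part 3.69% and 4.06% in replicates 2 and 1. By expected counts, which weigh long transcripts more, the protein-coding part was 53.5% in replicate 2 and 50.7% in replicate 1. Sums give most weight to the highest genes, and gene by gene the gap in TPM was smaller. The median coding share was 49.3% over the 35 expressed members and 52.2% over 7583 other expressed protein-coding genes. Of the 35 members, 14 lay above the median of the other genes. A retained-intron transcript was the leading one in 14 of the 36 genes by mean TPM, an NMD-annotated one in 3 and a processed one in 4, and in 31.4%, 2.21% and 7.26% of 7592 other expressed protein-coding genes. By counts the numbers were 9, 1 and 1, with a coding transcript leading in 25 genes. The same 4 shares of the other genes by counts were 20.6%, 2.11%, 2.71% and 74.6%. By the second quantification the members' numbers were 12, 2, 5 and 17, and the other genes' shares 34.0%, 3.69%, 15.9% and 46.3%.

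**Figure D2:**
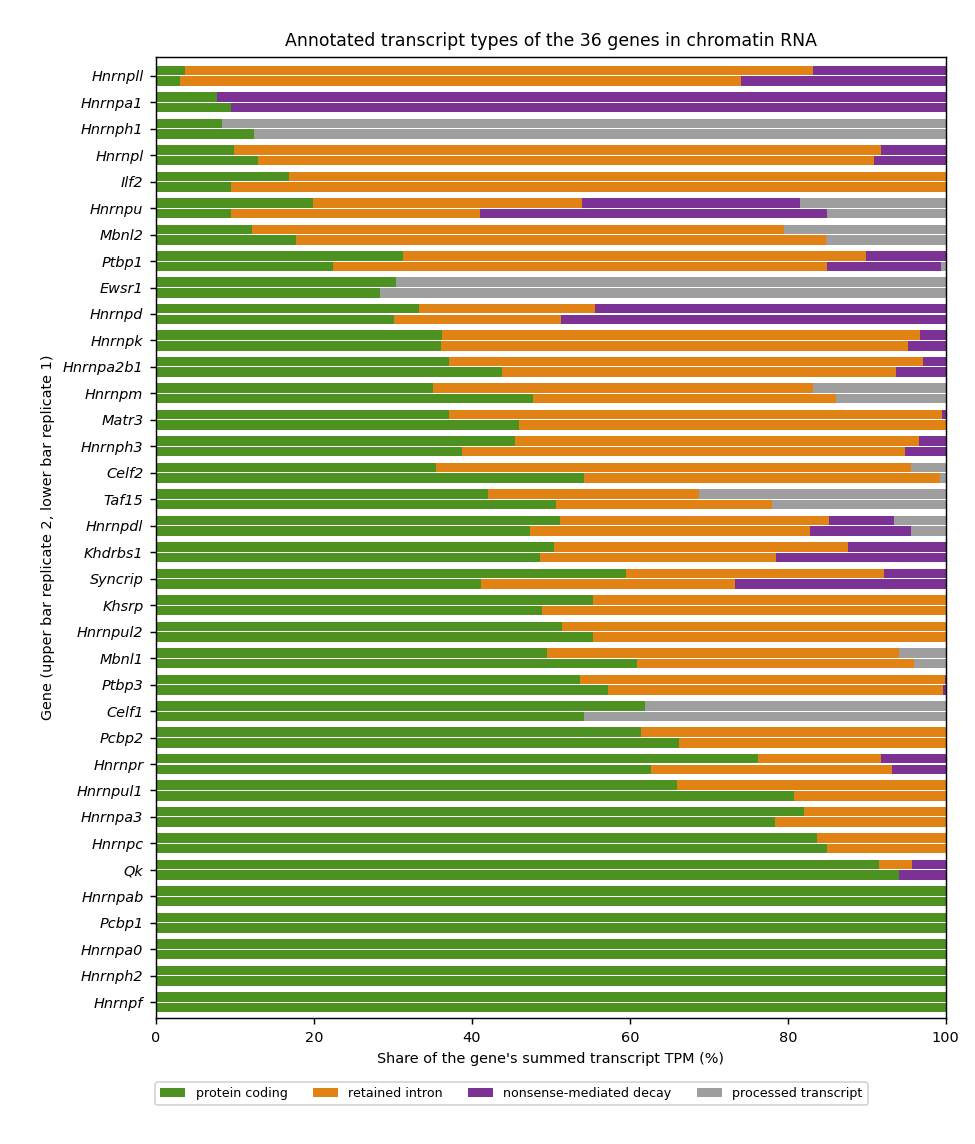
Share of each gene's summed transcript TPM on the 4 annotated transcript types, with replicate 2 as the upper and replicate 1 as the lower bar of each pair, ordered by the coding share. Hnrnpll, Hnrnpa1 and Hnrnph1 stand at the top with coding shares of 3.31%, 8.66% and 10.4% (means), while 5 genes at the bottom are wholly coding by annotation.

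The median retained-intron share over the 27 expressed members with such a transcript was 43.2% of gene TPM. Over 5206 other expressed protein-coding genes with one it was 45.9%. In chromatin RNA, reads of transcripts not yet spliced and of retained introns cannot be told apart in these tables. The part of unspliced RNA in these and the coding shares was not tested. With expected counts in place of TPM the members' median was 22.3%, for which no value of the other genes is given here. By share of TPM the members were thus not above the background: 12 of 27 lay above the median of the other genes and 4 above their upper quartile of 62.6%. The median was 60.6% over 26 core spliceosome genes and 54.8% over 15 broadly expressed relatives.

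The 3 highest shares belonged to Ilf2, Hnrnpl and Hnrnpll. Ilf2 had 83.1% in replicate 2 and 90.5% in replicate 1, at 500 and 282 counts in the gene, so that its share rests on the fewest reads of the 3. Its first transcript by mean TPM, Ilf2-202 (1702 bases, 1.28 TPM in replicate 2 and 1.58 TPM in replicate 1), keeps 1 whole coding intron. Hnrnpl had 82.0% in replicate 2 and 78.0% in replicate 1, and Hnrnpll 79.6% in replicate 2 and 71.1% in replicate 1. All 3 stayed above 66% when expected counts or the second quantification were used. Whole coding introns were rarer: non-coding transcripts that hold one had 5.20% of Hnrnpl TPM in replicate 2 and 4.98% in replicate 1. For Hnrnpll these values were 14.8% and 11.5%, and for Ilf2 53.6% and 52.5%, in replicates 2 and 1. Most of the retained-intron share of Hnrnpl and Hnrnpll thus lay on transcripts without a whole coding intron. The lowest retained-intron shares were those of Qk (4.24% in replicate 2 and 0% in replicate 1), Hnrnpc (16.3% and 15.0% in replicates 2 and 1) and Hnrnpa3 (17.96% and 21.7%). Qk and Hnrnpc stayed the lowest by the second quantification, with means of 0% and 8.44%, and by counts, with 0.16% and 3.68%. Hnrnpa3 did not, with 32.0% by the second quantification and 4.84% by counts, above Hnrnpd in both. Qk, Hnrnpc and Hnrnpa3 were led by coding transcripts, Qk-201 (6737 bases) at 16.8 TPM in replicate 2 and 4.31 TPM in replicate 1, Hnrnpc-210 at 23.7 and 11.2 TPM, and Hnrnpa3-207 at 27.5 and 21.8 TPM in replicates 2 and 1. The second quantification lists Hnrnpa3-207 at 0 in both libraries.

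The label of a transcript decided part of this ordering. Hnrnph1, Ewsr1 and Celf1 have no transcript of the retained-intron type, yet 89.6 ± 2.86% and 70.6 ± 1.43% of the TPM of Hnrnph1 and Ewsr1 lay on transcripts typed as processed. By expected counts these parts were 87.5% and 43.4% as means, so most Ewsr1 counts lay on coding transcripts. Whole coding introns were held by non-coding transcripts with 67.1% of Hnrnph1 TPM in replicate 2 and 54.6% in replicate 1, and with 25.3% of Ewsr1 TPM in replicate 2 and 28.1% in replicate 1. The leading one for Hnrnph1, Hnrnph1-204, is 4002 bases long, keeps 2 whole coding introns and had 46.2 TPM in replicate 2 and 24.2 TPM in replicate 1. The 5′ splice sites kept in it and in Ewsr1-209 are printed above. When non-coding transcripts of any type with at least 100 bases outside coding exons were counted, a measure chosen after the data were seen, the median over expressed members with a coding intron was 50.8%.

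Hnrnpl and Hnrnpll, which are paralogs, shared the same arrangement around the exons printed at the start. The Hnrnpl exon lies in an intron of 3108 bases, and 5 transcripts with bases in that intron together held 63.2% of the gene's TPM in replicate 2 and 62.7% in replicate 1. Hnrnpl-206, the leading transcript of the gene at 18.3 TPM in replicate 2 and 12.7 TPM in replicate 1, runs 1608 bases into the intron and ends before the exon. Hnrnpl-213, the spliced form with the 70-base exon, had 5.78 TPM in replicate 2 and 5.14 TPM in replicate 1, and Hnrnpl-207, typed as retained intron, carries the exon as well with 6.58 and 5.48 TPM in replicates 2 and 1. Hnrnpl-205, with 627 bases of the intron, had 14.1 TPM in replicate 2 and 12.2 TPM in replicate 1.

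For Hnrnpll the intron has 4042 bases, and 2 transcripts reach into it with 46.4% of gene TPM in replicate 2 and 49.5% in replicate 1. Hnrnpll-207 runs 3559 bases into it and stops just short of the exon, at 43.8 TPM in replicate 2 and 17.98 TPM in replicate 1. Hnrnpll-203, with the 83-base exon, had 24.96 TPM in replicate 2 and 19.6 TPM in replicate 1. The coding transcripts of Hnrnpll together held 3.61% of its TPM in replicate 2 and 3.02% in replicate 1. In human cells hnRNP L protein is known to promote inclusion of the poison exon of its own transcript and of that of its paralog.

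**Figure D3:**
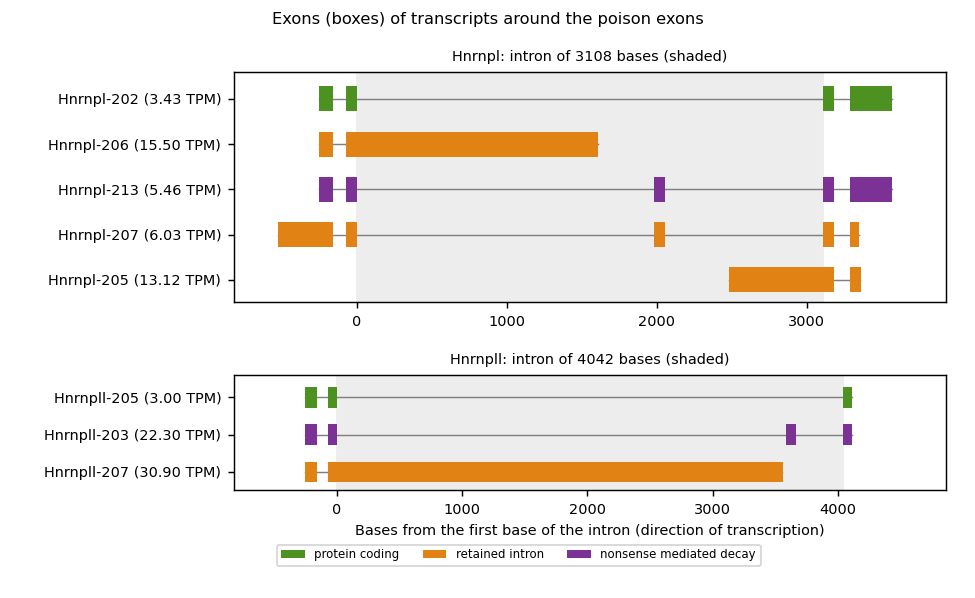
Exons (boxes) of transcripts around the poison-exon introns of Hnrnpl and Hnrnpll, as bases from the first base of the intron (shaded) in the direction of transcription, with the mean TPM of both libraries beside each name. The leading coding transcript that splices out the intron is on top of each panel, and in both genes the retained-intron transcript that enters the intron from its 5′ end stops before the exon with the stop codon.

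NMD-annotated transcripts are present in 17 of the expressed members. Their median share of gene TPM was 8.62%, against 5.78% over 2544 other expressed protein-coding genes with such a transcript. By the second quantification the members' median was 14.2%, for which no value of the other genes is given here. By the first quantification, 10 of the 17 members lay above the other genes' median and 6 above their upper quartile of 16.0%.

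Hnrnpa1 stood far above the rest, with 92.2% of its TPM on NMD-annotated transcripts in replicate 2 and 90.5% in replicate 1, and 78.2% as a mean by the second quantification. Hnrnpa1-203 had 29.7 TPM in replicate 2 and 25.6 TPM in replicate 1, and Hnrnpa1-204 had 21.4 and 10.6 TPM in replicates 2 and 1. Both end at the ordinary stop codon of the gene (chr15:103244012-103244014, plus strand) and continue with 2 exons outside all coding exons, so that their last splice junction lies 90 and 1801 bases after the stop. The coding transcript Hnrnpa1-202 had 4.21 TPM in replicate 2 and 3.82 TPM in replicate 1. The part of the pseudogene copies in these values was not tested.

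Hnrnpd followed, with 44.4% in replicate 2 and 48.7% in replicate 1. By the second quantification and by expected counts its NMD-annotated share was 31.9% and 34.8%, and its coding share 51.9% and 61.4%, as means. The leading transcript of Hnrnpd by mean TPM, Hnrnpd-208, also stops at the ordinary codon and is spliced again after it. Its last junction lies 137 bases after the stop, and it had 14.3 TPM in replicate 2 and 5.62 TPM in replicate 1. NMD-annotated transcripts with the stop shared with any coding transcript numbered 11 in 7 genes. They held 48.6% of all NMD-annotated TPM of the members in replicate 2 and 42.7% in replicate 1. They include forms of Hnrnpa2b1, Hnrnph3, Khdrbs1 and Qk. The shared stop need not be the ordinary one: Hnrnph3-204 has 6 junctions after its stop, the last at 609 bases.

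In Hnrnpu the share was 27.7% in replicate 2 and 43.9% in replicate 1, almost all of it Hnrnpu-206 at 32.2 and 35.1 TPM in replicates 2 and 1. This transcript leaves out the ordinary stop codon and joins a 71-base exon (chr1:178325243-178325313, minus strand) that lies within the 3′ untranslated region of the coding transcript Hnrnpu-201. The new stop is 4071 bases downstream of the ordinary one, and 3 exons follow that lie past the annotated end of Hnrnpu-201. Hnrnpu-201, of 7640 bases, had 23.3 TPM in replicate 2 and 7.70 TPM in replicate 1. By expected counts the NMD-annotated share of Hnrnpu was 39.5% and its coding share 43.7%, as means.

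In Ptbp1 and Hnrnpk, skipped coding exons gave premature stops. Ptbp1-201 skips a coding exon of 34 bases, which shifts its frame to a stop at chr10:79862473-79862475, and had 5.16 TPM in replicate 2 and 7.45 TPM in replicate 1. Skipping of this exon is known from PTB, which acts on its own transcript. Hnrnpk-203 and Hnrnpk-229 skip a coding exon of 44 bases, with 4.32 and 3.19 TPM in replicate 2 and 3.44 and 3.54 TPM in replicate 1. The lowest shares were those of Celf2 (0% in both libraries), Ptbp3 (0.06% in replicate 2 and 0.30% in replicate 1) and Matr3 (0.42% and 0% in replicates 2 and 1), and by the second quantification these were 4.0%, 5.8% and 14.9% as means.

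**Figure D4:**
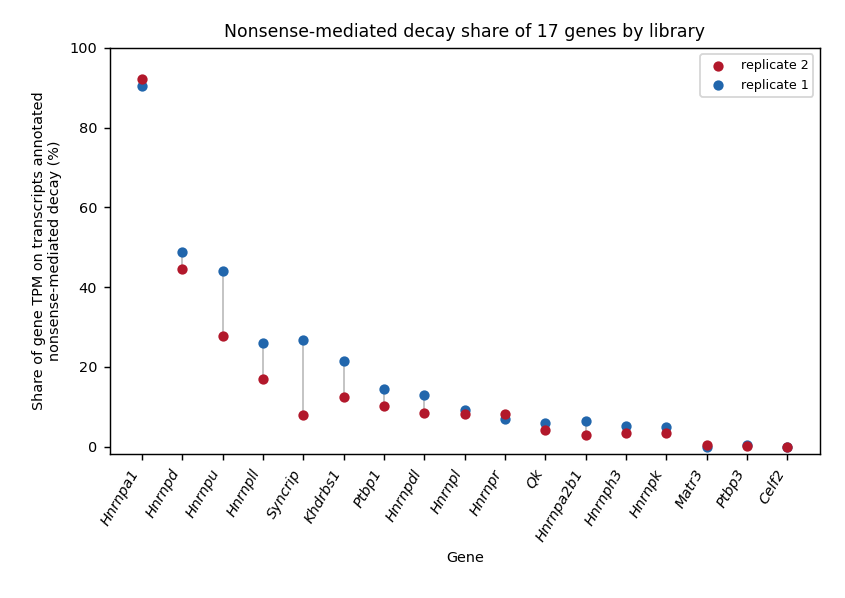
Percent of each gene's TPM on NMD-annotated transcripts in the 17 expressed members that have one, in replicate 2 (red) and replicate 1 (blue), ordered by the mean. Hnrnpa1 is near 90% in both libraries, and Hnrnpu, Syncrip, Hnrnpll and Khdrbs1 show the widest gaps, each with the higher value in replicate 1.

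The NMD share was lower in replicate 2 than in replicate 1 for 13 of the 17 members and higher for 3. Among the 2544 other genes it was lower in replicate 2 for 1259 (49.5%) and higher for 827, the rest being equal, with medians of 4.56% in replicate 2 and 6.68% in replicate 1. The widest gap was in Syncrip, at 7.84% in replicate 2 and 26.6% in replicate 1. There the NMD-annotated Syncrip-203 had 5.83 TPM in replicate 2 and 10.2 TPM in replicate 1, and the coding transcript Syncrip-201 (9450 bases) had 14.3 TPM in replicate 2 and 3.03 TPM in replicate 1. Summed over the members and scaled by TMM, counts on NMD-annotated transcripts were 0.59-fold in replicate 2 over replicate 1, and counts on coding and retained-intron transcripts 1.10- and 1.08-fold. Over the other expressed protein-coding genes the same 3 values were 0.84-, 0.86- and 1.13-fold.

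The ratio between the libraries went weakly with transcript length. Among member transcripts with a summed count of 20 or more and some counts in each library, the 23 of 5000 bases or more had a median log2 ratio of 0.58 (replicate 2 over replicate 1, TMM-scaled counts), the 153 of 1000 to under 5000 bases a median of -0.19 and the 82 under 1000 bases a median of -0.17. In the other genes the medians were -0.03, -0.09 and -0.26. Spearman's rho of length and log2 ratio was 0.22 over 258 member transcripts and 0.08 over 28661 transcripts of the other genes. Transcripts of the same gene are not independent, and genes such as Qk and Celf1 have several of the long ones. The part of length, of RNA input and of handling in these differences was not tested, and input and library cannot be told apart.

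At the level of whole genes the size of the differences between libraries depended on the scaling. With TMM scaling, 2 of 36 members were 2-fold or more higher in replicate 2, against 8.7% of the 14442 genes that had 20 or more counts over both libraries, and none was 2-fold or more lower, against 5.59%. Scaled by library size alone, 9 members were 2-fold or more higher and none lower. That scaling raises the log2 ratio of every gene by 0.61. The share of all genes past 2-fold under it is not given here, so the 9 have no background. There is no test behind these calls, since the libraries belong to 1 group. Hnrnph2 had 1274 counts in replicate 2 and 246 in replicate 1 and was 2.46-fold higher after scaling (log2 1.30). Qk, a regulator of splicing and of circular RNAs, had 8205 counts in replicate 2 and 1897 in replicate 1 and was 2.05-fold higher (log2 1.04). Hnrnpf came next, at log2 0.60, with 1885 and 588 counts in replicates 2 and 1. By the second quantification only Hnrnph2 remained past 2-fold.

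The lowest ratios were those of Hnrnpl (log2 -0.65, with 2464 counts in replicate 2 and 1832 in replicate 1), Ptbp1 (log2 -0.58, with 3138 and 2231 counts) and Khsrp (log2 -0.58, with 1202 and 852 counts). The leading transcripts of these genes, Hnrnpl-206, Ptbp1-213 and Khsrp-201, had 18.3, 16.5 and 8.92 TPM in replicate 2 and 12.7, 14.0 and 5.87 TPM in replicate 1. For Hnrnph2 the coding transcripts Hnrnph2-205 and Hnrnph2-204 had 6.36 and 6.37 TPM in replicate 2, and 0.62 and 1.24 TPM in replicate 1.

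Taken over all 36 genes, the median log2 ratio on TMM-scaled counts was 0.04, and it was -0.12 over expressed protein-coding genes. With library size alone these medians were 0.65 and 0.49, so that the choice of scaling moved every gene by 0.61. Relative to the median of protein-coding genes, 23 of 36 members were higher in replicate 2 under either scaling. On TPM + 1 the members' median lay 0.23 above that of expressed protein-coding genes. The ratio went with the span of the gene among the members (Pearson's r = 0.47 with log span, Spearman's rho = 0.54, 36 genes) and hardly at all among 7593 other expressed protein-coding genes (r = 0.04, rho = 0.06). These correlations are across genes, which share libraries and are not independent replicates. No core spliceosome gene of 31 with enough counts and none of the 18 broadly expressed relatives was past 2-fold in either direction. Of 8 macrophage markers 2 were past 2-fold lower in replicate 2, Csf1r at log2 -1.16 and Itgam at log2 -1.24, as were the paralog Pcbp4 (log2 -1.20) and Itga2b (log2 -1.03).

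**Figure D5:**
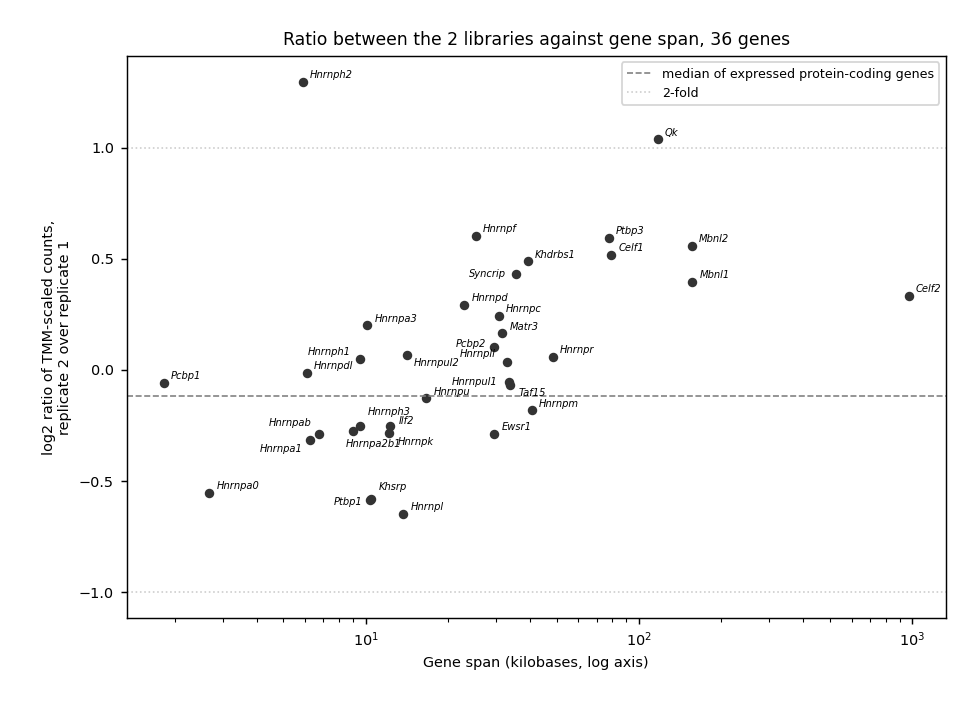
Log2 ratio of TMM-scaled counts, replicate 2 over replicate 1, against gene span in kilobases (log axis) for the 36 genes, with the median of expressed protein-coding genes as a dashed line and 2-fold as dotted lines. Hnrnph2 and Qk lie above the upper 2-fold line, and Ptbp3, Celf1, Mbnl1, Mbnl2 and Celf2, all longer than 75 kilobases, lie above the dashed line.

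Overlap with other genes touches many of the members. Genes on the opposite strand overlap 19 of the 36, and genes on the same strand 10. Use of strand in counting is not stated in the sources used here, and reads of such neighbours cannot be told apart from those of the members with certainty. The longest overlap with a counted neighbour was that of Pcbp2 with the lincRNA gene Gm26518, over 13184 bases, which had 26.4 TPM in replicate 2 and 12.1 TPM in replicate 1.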

How the data were processed

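The authors deposited estimated (expected) counts and TPM per gene and per transcript, made by aligning reads to the GENCODE M21 transcriptome on mm10 per the text they added, here the first quantification. They also deposited a transcript table of estimated counts and TPM made from the reads and a transcript index, the second quantification. Column names are those of RSEM and kallisto; aligner, quantifier, versions and use of strand are not stated in the sources used here. Rows of no annotated gene, 0.277% of counts in replicate 2 and 0.409% in replicate 1, were left out. The 36 members and all gene lists were chosen with earlier results of these data known.

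From these tables, levels, transcript-type shares of gene TPM (types of GENCODE M21) and log2 ratios between libraries were computed. Expected counts were rounded for scaling by TMM (edgeR 4.0.16) over genes with at least 20 counts in sum; DESeq2 1.42.0 size factors were an alternative. Library factors were 1.24 for replicate 2 and 0.81 for replicate 1. A gene was called expressed at 1 TPM in both libraries. With 1 group no test was run. The TMM-scaled ratio alone was tested on simulated counts, with TMM factors computed apart from edgeR. The other steps were not tested on simulated data. Copies were found with BLAST 2.17.0. Genes given with both libraries' values were the 3 highest and 3 lowest by level, share or ratio, with their leading transcripts; those added after their values were seen are Hnrnph1, Ewsr1, Syncrip, Hnrnpl-205, Hnrnpl-207, Hnrnpu-201, Ptbp1-201, Hnrnpk-203, Hnrnpk-229, Hnrnpf, Celf1, Khdrbs2, Pcbp4, Pecam1, Ms4a1, Csf1r, Itgam, Gm5641 and Gm26518.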

Additional observations from a re-analysis of the deposited data

How the results depend on the processing

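No paired analysis was possible because the series has 1 group of 2 libraries. The number of members at 1 TPM or more in both libraries ran from 32 (at 5 TPM) to 36, and it was 35 or 36 with a replicate left out. Their median TPM ran from 34.0 to 65.8 with a replicate left out and became 259 when TPM was rescaled to protein-coding genes alone. The median retained-intron share ran from 38.4% to 44.6% with a replicate left out, and was 22.3% by expected counts and 50.8% for non-coding transcripts with intron bases of any type, an alternative chosen after seeing the data. The median NMD share ran from 8.17% to 9.07% with a replicate left out and was 14.2% by the second quantification. The number of members past 2-fold was 9 (all higher in replicate 2) by library size alone, 5 at 1.5-fold and 1 by the second quantification. The shares of all genes past the limit under these settings are not given here. The median log2 ratio relative to protein-coding genes kept its sign under all 4 alternatives, between 0.14 and 0.20. The cause of these shifts was not tested, except that the 1.5-fold limit and the rescaling act by construction. Transcript shares divide reads among overlapping annotated forms, and RNA not yet spliced was not separated from forms annotated with intron. Intron reads outside annotated transcripts are not in the tables, and short transcripts with few counts can take a large part of a gene's TPM.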

Other observations

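Hnrnpr was led by Hnrnpr-209, a coding fragment of 292 bases, with 2.35 TPM in replicate 2 and 0.92 TPM in replicate 1 on 5.91 and 1.99 counts in replicates 2 and 1. Leading transcripts under 1000 bases were found in 8 of the 36 genes, and the leading transcript by counts was the same as by TPM in 19.

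Among the copies of Hnrnpa3, Gm5641 had 157 counts in replicate 2 and 183 in replicate 1 by the first and 2783 and 1922 by the second.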
